A study of Arabidopsis thaliana with 6 samples.

Results

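UGT genes encode family 1 glycosyltransferases of plants, and the annotation names 47 of them, each for 1 probe set on the arrays of this study. The members are the probe sets with a single listed gene whose symbol has the UGT form (a family number, a subfamily letter and a gene number), with UGT75C1 left out. They are 47 of 13513 probe sets with 1 listed gene and of 22746 probe sets other than controls, and they fall into 11 UGT families. All 47 matched a locus of the RefSeq gene table under the same symbol. A further 3 probe sets that list a UGT together with a second gene are not members. No gene is listed for 8730 probe sets, and any UGT genes among them are not covered here.

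Total RNA of Arabidopsis thaliana rosette leaves was hybridised to ATH1 arrays, 1 sample per array. The wild-type group held 3 samples of the accession Col-2. The pho1 group held 3 samples of a mutant made by EMS, a chemical mutagen, in the Col-2 background. It is a single mutant line, so the allele cannot be told apart from other changes that line may carry. All plants reached developmental stage 3.90 under a photoperiod of 16 h, at 24 °C and 80% humidity, on MS medium solidified with 0.8% agar that held 1% sucrose. The replicates of each group are numbered 1, 2 and 3, and the labels do not say whether they came from separate plants. The p-values thus rest on the spread among the arrays, which can be technical.

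Enzymes of this family move a sugar, mostly glucose, from a UDP-sugar to a small acceptor molecule. In leaves their acceptors include flavonols, lignin precursors, hydroxycinnamic acids, glucosinolate precursors, hormones and foreign compounds, and the sugar changes an acceptor's solubility, storage or activity. PHO1 is a phosphate exporter that loads phosphate into the xylem of the root, and pho1 mutants are known for phosphate-poor shoots. The comparison asks which members differ between leaves of such a mutant and of its wild type.

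No UGT probe set bright enough to be tested passed the threshold in either direction over the 6 arrays, counted equally and without a block. With the replicate number as a block 1 passed. Of the 47 members, 24 were bright enough to be tested, and 0 of the 24 had an adjusted p under 0.05 (limma across all 15922 tested probe sets), where 2.96% of all tested probe sets passed. With the block 1 of the 24 passed, UGT87A2 (limma adjusted p = 0.013), which is 4.17%, beside 6.64%. At an unadjusted p under 0.05, 2 of the 24 passed (limma), UGT87A2 and UGT72E1, against 15.1% of all tested probe sets. Both lay higher in pho1 on all 3 arrays than on any wild-type array. Groups did not overlap for these 2 of the 24 alone, which is 8.33%, against 19.9% of all tested probe sets in either direction and 10.8% in this one. Of the 23 members too dim for the test, 4 had groups that did not overlap, all higher in pho1 (UGT71B8, UGT71C3, UGT76B1 and UGT76E12). This is 17.4%, beside 10.7% of all probe sets set aside as dim in either direction and 6.77% in this one. Values are MAS5 signals on a linear scale, and differences are pho1 minus wild type on a scale of log2(signal + 10), which understates the change of dim probe sets.

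Most tested members had small differences. The 24 tested members ranged from -0.63 (UGT85A5) to 1.56 (UGT87A2), and 20 lay within 0.5 of zero. The share of all tested probe sets within 0.5 was not counted, so the 20 are not read as a trait of UGT genes. The median of the 24 members was 0.16, beside -0.021 over all tested probe sets, with 16 members above 0 and 8 below. Of all 15922 tested probe sets, 7483 lay above 0 and 8439 below. The members' median differed between replicate numbers, at -0.03, 0.09 and 0.22 in replicates 1, 2 and 3. Over all tested probe sets it was -0.016, 0.025 and -0.045 in replicates 1, 2 and 3. Members lying higher in pho1 numbered 11, 14 and 19 of the 24 in those replicates. The 95% interval of a member's difference had a median half-width of 0.47, and a call asks for more than an interval that leaves out 0, since its p is adjusted over all tested probe sets. Differences of that size and somewhat above it were thus not detectable in a typical member. The half-widths ran from 0.35 to 1.34.

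**Figure D1:**
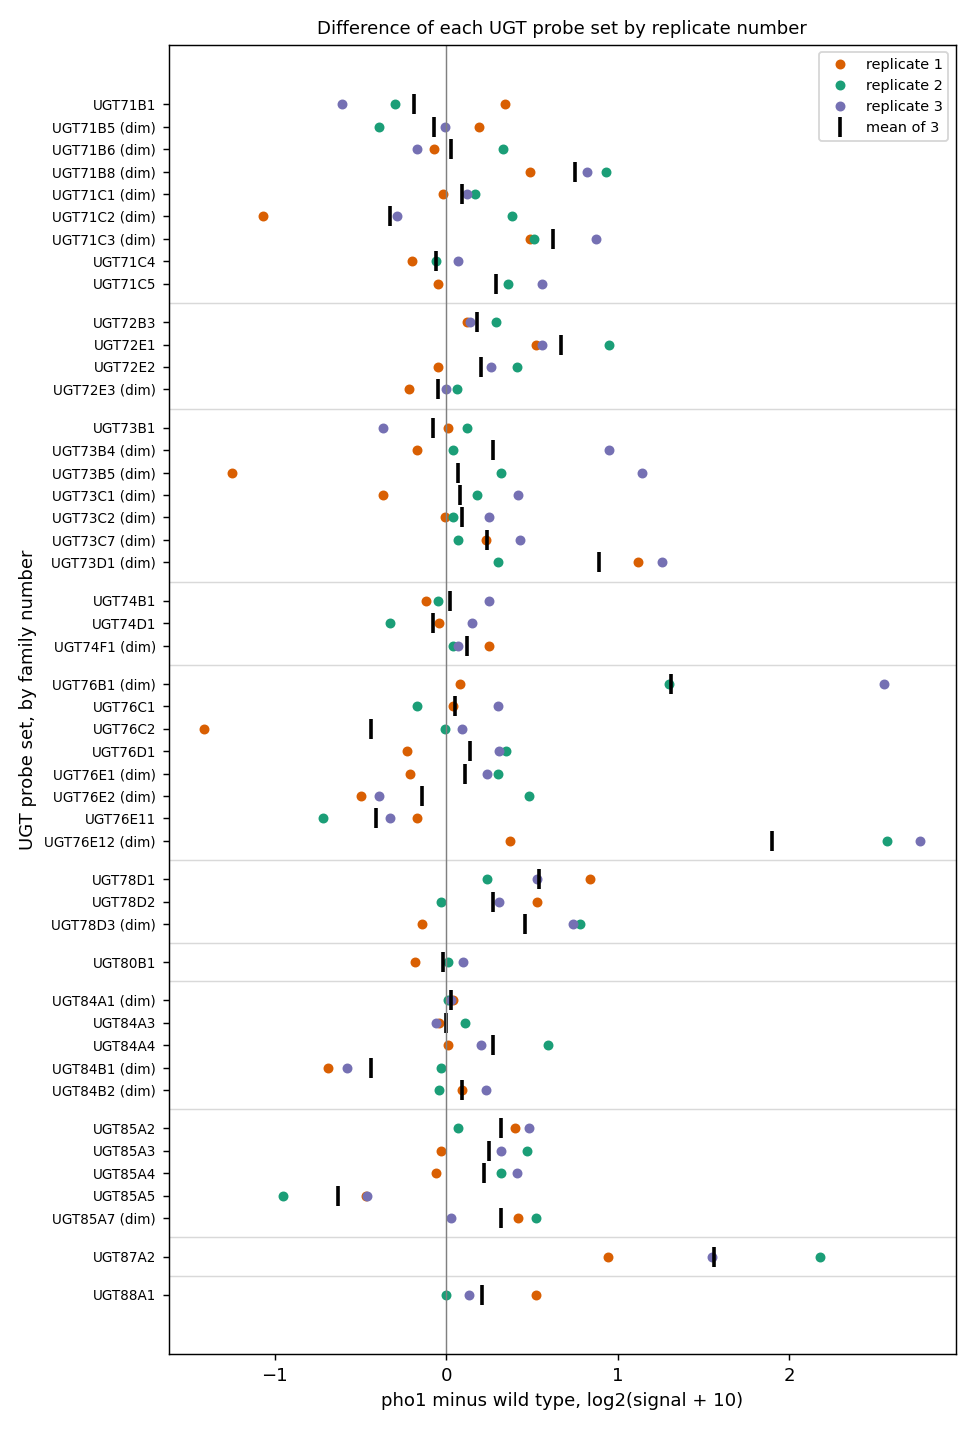
Difference of each of the 47 UGT probe sets, pho1 minus wild type in log2(signal + 10), ordered by family number; dots are the 3 replicate numbers, bars their mean, and dim marks the 23 members too dim to be tested. Most dots lie within 1 of zero, while UGT87A2 lies above 0 in all 3 replicates (0.94, 2.18 and 1.55) and UGT76E12 is far above 0 in replicates 2 and 3 but at 0.37 in replicate 1.

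UGT87A2 (AT2G30140), known in Arabidopsis for a role in flowering time, had the largest difference among the tested members. Its signals were 80.3, 73.0 and 145.9 in wild type replicates 1, 2 and 3, and 163, 367 and 447 in the pho1 replicates. Every pho1 array was above every wild-type array, although pho1 replicate 1 exceeded wild type replicate 3 only slightly. The means were 99.7 ± 40.1 and 326 ± 146 (SD, n = 3 each), and the difference of 1.56 ± 0.39 (SE) did not pass without the block (limma adjusted p = 0.0835). The difference was 0.94 in replicate 1, which has 1 array per group and no test, and 1.87 when replicates 2 and 3 were fitted alone (limma adjusted p = 0.00552). Because each sample is a whole leaf extract, a difference in the number of cells of a type and one in RNA per cell cannot be told apart, here or below.

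Among genes for lignin precursors and other phenylpropanoids, UGT72E1 of family 72 lay higher in pho1 without passing. UGT72E1 (AT3G50740), which glucosylates coniferyl aldehyde, had signals of 93.6, 74.5 and 93.1 in wild type and 138, 153 and 142 in pho1. The groups were well apart and each was tight. The difference was 0.67 ± 0.16 (SE; 95% interval 0.31 to 1.03), and its adjusted p = 0.067 (limma) missed the threshold. It was 0.52, 0.95 and 0.56 in the 3 replicates, and the fit of replicates 2 and 3 alone gave 0.75 (limma adjusted p = 0.0165). With the replicate block it did not pass (limma adjusted p = 0.0508).

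Other members of family 72 showed less. UGT72E2, an enzyme for coniferyl and sinapyl alcohol, was at 43.0 ± 8.49 in wild type and 50.6 ± 3.35 in pho1, a difference of 0.20 ± 0.17 (SE; limma adjusted p = 0.665). UGT72B3 differed by 0.18 ± 0.20 (SE). The dim UGT72E3, a close relative of UGT72E2, stayed at or below 3.2 on every array, with a difference of -0.05. UGT72E2 was at -0.05 in replicate 1, and its groups overlapped. In all, 3 of the 4 members were tested and had a median of 0.20.

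The flavonol genes of family 78 also lay on the positive side without passing. UGT78D1, a rhamnosyltransferase of flavonols, had signals of 39.6, 122 and 131 in wild type and 78.7, 146 and 193 in pho1. Each pho1 array exceeded the wild-type array of the same number, by 0.84, 0.24 and 0.53, yet the groups overlapped because both replicate 1 arrays were low. Its difference was 0.54 ± 0.44 (SE; limma adjusted p = 0.662). UGT78D2, which glucosylates flavonols and anthocyanidins, was at 117 ± 27.3 in wild type and 141 ± 15.1 in pho1, a difference of 0.27 ± 0.20 (SE). The arabinosyltransferase gene UGT78D3 was dim, with signals of 2.3, 2.5 and 6.4 in wild type and 1.2, 11.4 and 17.4 in pho1.

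None of the family 84 genes for esters of hydroxycinnamic acids passed without array weights. UGT84A3 was at 130 ± 12.3 in wild type and 130 ± 9.45 in pho1, and its 95% interval of -0.35 to 0.36 is among the narrowest of the family. UGT84A4 was at 40.7 ± 9.22 and 50.5 ± 3.95, a difference of 0.27 ± 0.18 (SE; 95% interval -0.15 to 0.68; limma adjusted p = 0.569). It lay above 0 in each replicate number, at 0.01, 0.59 and 0.20, and passed with array weights, which estimate how much each array counts, at 0.45 (limma adjusted p = 0.0342). UGT84A1 was at or below 1.6 on all 6 arrays. UGT84B1, which esterifies the auxin indole-3-acetic acid, was dim too, at 7.2 ± 4.07 in wild type and 2.47 ± 0.611 in pho1, and UGT84B2 stayed at or below 3.7.

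Among the members that act on hormones and defence signals, the largest mean difference was at a gene too dim for the test. UGT76E12 (AT3G46660) belongs to a subfamily known for flavonols and oxidised jasmonates as acceptors. Its signals were 4.8, 0.7 and 1.8 in wild type and 9.1, 53.6 and 69.9 in pho1. The wild-type arrays and pho1 replicate 1 were all dim, and pho1 replicates 2 and 3 stood far above them. The mean difference was 1.90, made up of 0.37, 2.57 and 2.76 in replicates 1, 2 and 3. When replicates 2 and 3 were fitted alone its difference was 2.67 (limma adjusted p = 4.57e-04). It entered that fit only through its pho1 arrays, since both wild-type signals lie far below 17.4, the limit over 6 arrays. The limit of that fit was set over its own arrays and is not given here. The filter itself thus selected for this difference, and the p is no independent support for it. With no filter and all 6 arrays it did not pass (limma adjusted p = 0.172). The signal of its wild-type arrays lies below the offset of 10, so no fold is given.

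UGT76B1 (AT3G11340) encodes an enzyme that glucosylates salicylate, isoleucic acid and N-hydroxypipecolate, and its values were ordered alike. They were 5.7, 1.4 and 3.0 in wild type and 6.6, 18.0 and 66.0 in pho1. The pho1 arrays were above the wild-type arrays, by a small margin in replicate 1. The mean difference was 1.31, with 0.08, 1.3 and 2.55 in the 3 replicates, and it did not pass without a filter (limma adjusted p = 0.355). UGT74F1, another salicylate glucosyltransferase gene, was at 1.5 to 3.8 in wild type and 3.3 to 4.5 in pho1.

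Other genes of family 76 went in no common direction. UGT76E11 (AT3G46670) had signals of 83.2, 116 and 110 in wild type and 72.9, 66.6 and 85.3 in pho1. It lay lower in pho1 in each replicate number, but pho1 replicate 3 was above wild type replicate 1. Its difference of -0.41 ± 0.18 (SE) did not pass (limma adjusted p = 0.336). The cytokinin N-glucosyltransferase genes UGT76C1 and UGT76C2 lie next to each other. UGT76C1 was at 72.1 ± 18.7 in wild type and 74.0 ± 10.7 in pho1. UGT76C2 had signals of 44.2, 49.2 and 27.5 in wild type and 10.4, 48.6 and 29.9 in pho1, so 1 array, pho1 replicate 1, carried its difference of -0.44 ± 0.37 (SE; limma adjusted p = 0.665). Without that replicate number, in replicates 2 and 3, it was at 0.04. UGT76D1, an enzyme for dihydroxybenzoic acids, differed by 0.14 ± 0.23 (SE), and UGT76E1 and UGT76E2 were dim on all arrays.

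**Figure D2:**
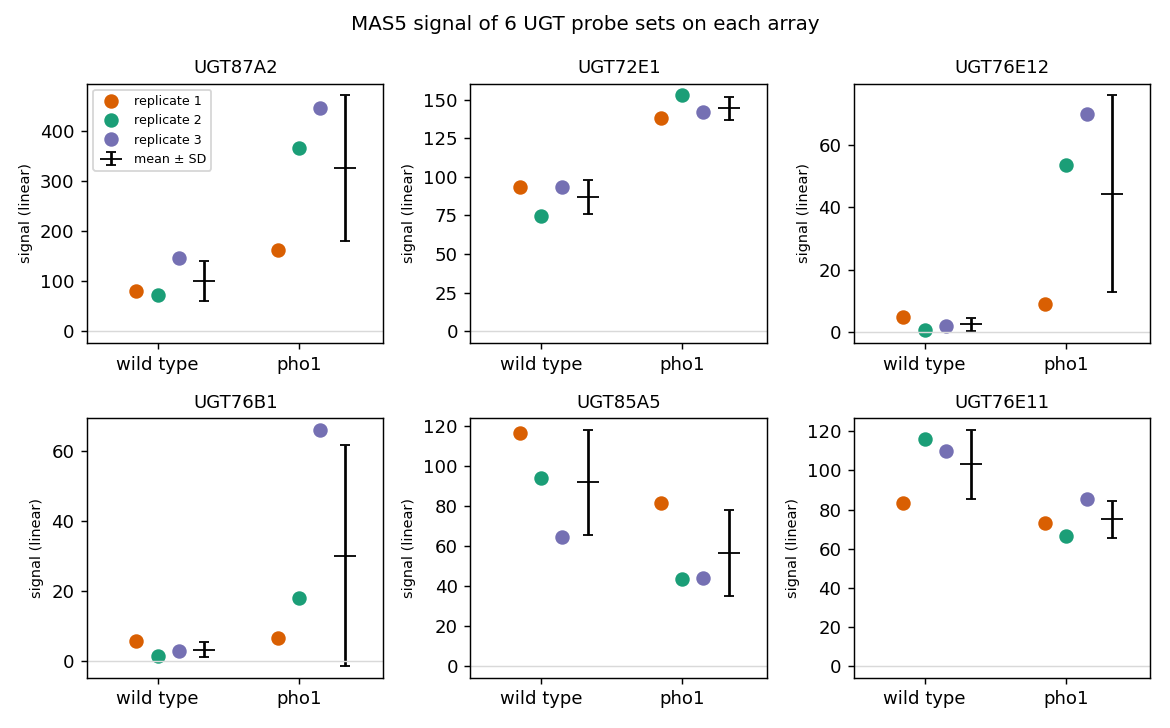
MAS5 signal on each of the 6 arrays for 6 UGT probe sets, on linear axes that include 0; dots are single arrays coloured by replicate number and bars are mean ± SD (n = 3). UGT87A2, UGT72E1, UGT76E12 and UGT76B1 have every pho1 array above every wild-type array, with pho1 replicate 1 the lowest pho1 array in all 4, while the groups of UGT85A5 and UGT76E11 overlap.

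Members of family 71, which include enzymes for abscisic acid, did not pass over the 6 arrays except with array weights or with no filter. UGT71C5, an abscisic acid glucosyltransferase gene, had signals of 87.1, 92.4 and 79 in wild type and 83.7, 122 and 121 in pho1. Its pho1 replicates 2 and 3 were above all wild-type arrays and replicate 1 was among them, for a difference of 0.29 ± 0.18 (SE; limma adjusted p = 0.535). With array weights it passed, at 0.41 (limma adjusted p = 0.0411). UGT71C4 was at 286 ± 114 and 268 ± 81.9 and UGT71B1 at 141 ± 88.7 and 110 ± 52.9, with differences of -0.06 and -0.19. The large spread of UGT71B1 came with the replicate number, since its replicate 1 arrays were at 38.7 and 51.7 and the other 4 at 122 to 193.

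Of the 4 dim genes whose groups did not overlap, 2 belong to family 71. UGT71B8, close to the abscisic acid glucosyltransferase gene UGT71B6, had signals of 3.5, 1.3 and 1.8 in wild type and 8.9, 11.6 and 10.9 in pho1. With no filter its difference of 0.75 ± 0.12 (SE) passed (limma adjusted p = 0.0403), where 1.27% of all probe sets did. All 6 of its signals lie below the limit of 17.4 set for the test, at the bottom of the array's range. UGT71C3, whose enzyme glucosylates methyl salicylate, had 4.2, 2.4 and 2.6 in wild type and 10, 7.6 and 13.1 in pho1, and did not pass (limma adjusted p = 0.104 with no filter).

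Family 74 was close to zero in its tested members. UGT74B1, the glucosyltransferase of the core glucosinolate pathway, was at 303 ± 36.8 in wild type and 312 ± 71.4 in pho1, a difference of 0.02 ± 0.21 (SE; 95% interval -0.46 to 0.51). UGT74D1, which acts on auxins, was at 127 ± 20.8 and 120 ± 15.2, a difference of -0.08 ± 0.18 (SE; limma adjusted p = 0.903).

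Family 73 holds genes linked to pathogens and to the detoxification of foreign compounds, and 6 of its 7 members were too dim to be tested. UGT73B1 was at 54.6 ± 8.13 in wild type and 50.8 ± 3.28 in pho1, a difference of -0.08 ± 0.16 (SE; limma adjusted p = 0.884). UGT73B4 was at or below 2.3 on 5 arrays and at 13 in pho1 replicate 3. Its neighbour UGT73B5 was highest in wild type replicate 1 (21.6) and then in pho1 replicate 3 (16.5), with the other 4 arrays at 2.0 to 6.1. UGT73D1 had signals of 1.1, 1.0 and 4.4 in wild type and 14.2, 3.5 and 24.5 in pho1, higher in each replicate number with overlapping groups. UGT73C1, UGT73C2 and UGT73C7 differed by 0.08, 0.09 and 0.24.

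Of the remaining families, 85 held the lowest tested member. UGT85A5 (AT1G22370) had signals of 117, 94.1 and 64.6 in wild type and 81.5, 43.7 and 44.1 in pho1. It lay lower in pho1 in every replicate number, by -0.47, -0.95 and -0.46, while pho1 replicate 1 overlapped the wild-type arrays. The difference of -0.63 ± 0.27 (SE) did not pass (limma adjusted p = 0.33). Fitted on replicates 2 and 3 alone it passed at -0.71 (limma adjusted p = 0.0421). The other tested members of the family, UGT85A2, UGT85A3 and UGT85A4, lay above 0, at 0.32 ± 0.19, 0.25 ± 0.25 and 0.22 ± 0.23 (SE). None of them passed (limma adjusted p = 0.5, 0.72 and 0.733), and their groups overlapped. In replicate 1 UGT85A3 and UGT85A4 were at -0.03 and -0.06. The dim UGT85A7 was at 12.2 ± 4.77 in wild type and 18.6 ± 10 in pho1. UGT80B1, a sterol glucosyltransferase gene of membrane lipid metabolism, was at 106 ± 20.5 and 103 ± 9.43, a difference of -0.02 ± 0.18 (SE). UGT88A1 had signals of 887, 670.0 and 735 in wild type and 1277, 669 and 804 in pho1. Its highest array was pho1 replicate 1, and the difference of 0.21 ± 0.27 (SE) did not pass (limma adjusted p = 0.79).

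UGT genes often lie in tandem, and 17 pairs of members were neighbours in the RefSeq gene table with at most 1 protein-coding gene between them. Both genes of a pair lay on the same side of 0 in 8 pairs and on opposite sides in 9. Most pairs held at least 1 gene too dim for the test, and some differences were close to 0, such as 0.03 in UGT71B6. These counts of signs are therefore not read as a result about neighbours. The widest gap was at UGT76E12 and UGT76E11, with 1 gene between them, whose differences were 1.90 and -0.41. Their gap was 0.54, 3.29 and 3.09 in replicates 1, 2 and 3. UGT85A5 at -0.63 lies between UGT85A2 at 0.32 and UGT85A3 at 0.25, and its gap to UGT85A2 was 0.87, 1.02 and 0.95 in the 3 replicates. A two-sided exact permutation test of each pair's gap over the 3 against 3 arrays cannot give less than p = 0.1. It could therefore not reach the threshold for any pair, it does not use the replicate numbers, and no order of neighbours is read from it. The value was reached by 3 pairs, UGT76E12 with UGT76E11, UGT71B6 with UGT71B8 and UGT84A3 with UGT84A4, and the smallest exact permutation p adjusted over the 17 pairs was 0.567. The gap had 1 sign in all replicates in several other pairs too, among them UGT71C4 and the dim UGT71C3, at -0.69, -0.56 and -0.81.

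**Figure D3:**
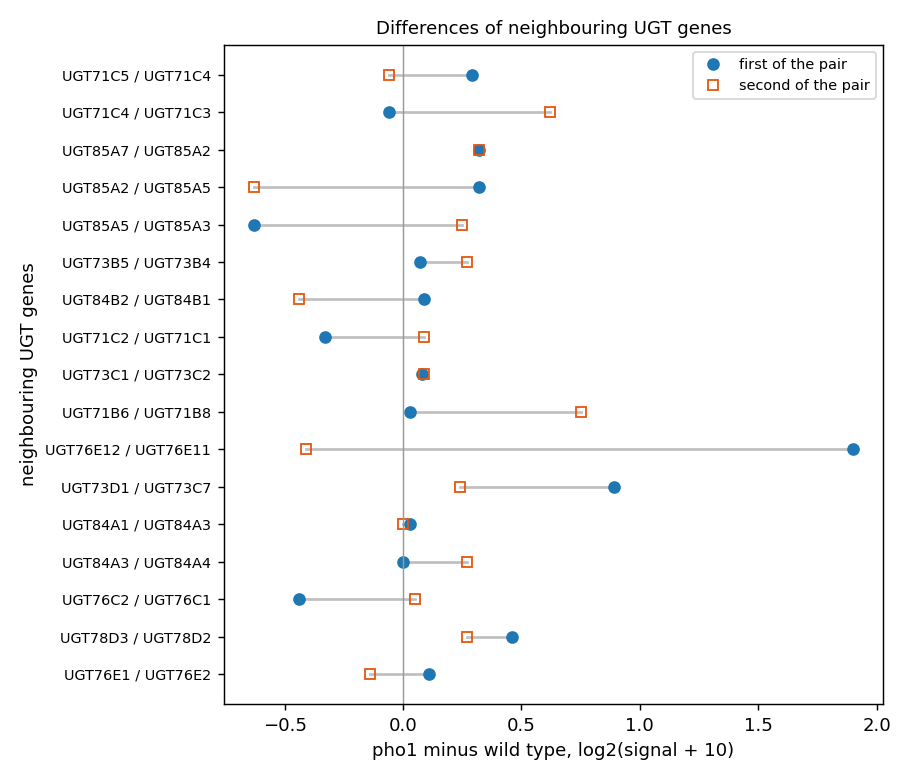
Differences, pho1 minus wild type in log2(signal + 10), of the 17 pairs of neighbouring UGT genes; the filled circle is the first and the open square the second gene of a pair, joined by a line. The pair UGT76E12 and UGT76E11 is the widest (1.90 and -0.41), and both pairs with UGT85A5 span 0.

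Both replicate 1 arrays stood apart from the other 4, and the signals of many tested members moved with that. Control probe sets for 4 bacterial spike-in RNAs (lys, phe, thr and dap; 24 probe sets) had a median signal of 3.75 on the wild-type and 2.1 on the pho1 array of that number, and of 43.9 to 88.3 elsewhere. In 13 of the 24 tested members both replicate 1 arrays lay outside the range of the other 4, which is 54.2%, against 33.1% of all tested probe sets. Among the dim members this held for 6 of 23, which is 26.1%, and the share over all dim probe sets was not counted. On the log2 scale, the mean of the replicate 1 arrays minus that of the other 4 was -1.66 in UGT71B1, -1.23 in UGT78D1 and 0.79 in UGT71C4. The part of this split in the group comparison was not tested beyond the fits that follow. Fitted on replicates 2 and 3 alone, 4 of 25 tested members passed, which is 16.0%, beside 19.0% of all tested probe sets. One of the 4, UGT76E12, was tested there only through its bright pho1 arrays, and of the 24 members also tested over 6 arrays 3 passed, which is 12.5%. The 4 were 3 higher ones (UGT72E1, UGT76E12 and UGT87A2; 9.72% of all tested probe sets were called higher) and UGT85A5, which was lower (9.26%). With the spike-in sets as a block, 2 of 24 passed, UGT72E1 (limma adjusted p = 0.0269) and UGT87A2 (0.0147), which is 8.33%, beside 8.28%. With array weights 6 of 24 passed, UGT71C5, UGT72E1, UGT84A4 and UGT87A2 higher and UGT76E11 and UGT85A5 lower, which is 25.0%, beside 23.8%.

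**Figure D4:**
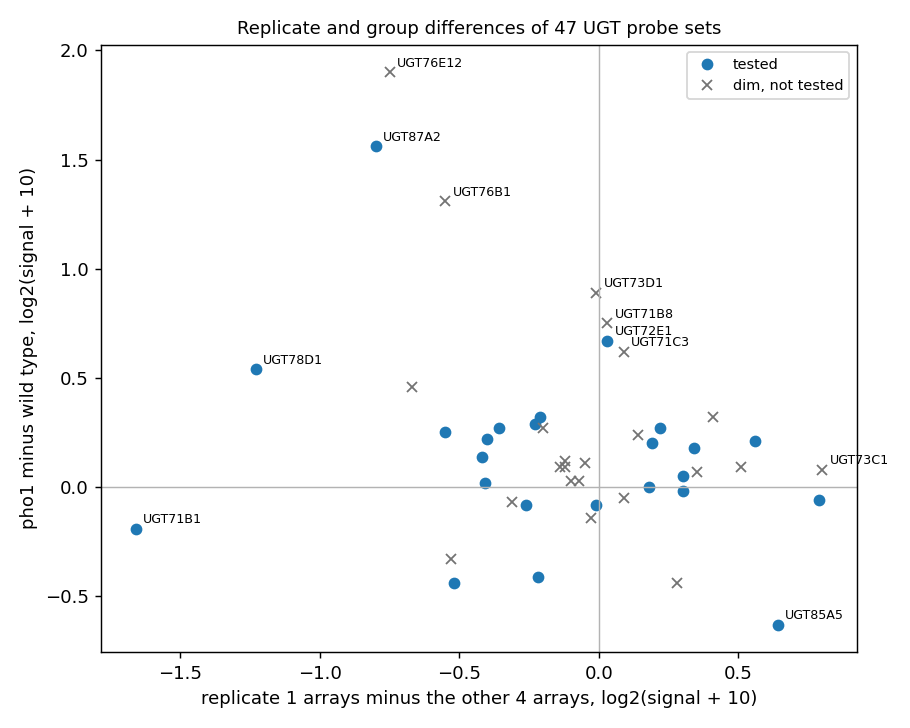
Each of the 47 UGT probe sets by its replicate difference (x, mean of both replicate 1 arrays minus mean of the other 4) and its group difference (y, pho1 minus wild type), both in log2(signal + 10); circles are tested and crosses are dim members. UGT71B1 (-1.66) and UGT78D1 (-1.23) lie farthest left, and UGT76E12 (1.90) and UGT87A2 (1.56) highest.

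Genes around the UGT reactions were named for few of the list entries, and none passed over all 6 arrays. For the supply of UDP-sugars, 1 of 37 entries was tested: USP, a UDP-sugar pyrophosphorylase, was at 130 ± 41.0 in wild type and 177 ± 60.7 in pho1, a difference of 0.41 ± 0.31 (SE; limma adjusted p = 0.62). For the synthesis of phenylpropanoid and flavonoid acceptors, 2 of 27 entries were tested, DFR (dihydroflavonol reductase) at 1.04 (limma adjusted p = 0.175; in replicates 2 and 3 alone 1.5, 0.00911) and ALDH2C4 (REF1, an enzyme of ferulate and sinapate synthesis) at 0.13 (limma adjusted p = 0.899). The glucosinolate gene BCAT4 was at 0.06, as the only tested one of 28 entries.

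BSMT1, which methylates salicylate and benzoate, was the only tested one of 15 salicylate entries. Its signals were 5.9, 5.7 and 17.9 in wild type and 4.5, 254 and 267 in pho1. The pho1 replicates 2 and 3 were the highest arrays and pho1 replicate 1 was dim. It did not pass over all arrays (difference 2.42 ± 1.01 SE; limma adjusted p = 0.309) and was at 3.69 in replicates 2 and 3 alone (limma adjusted p = 3.37e-04). The 2 bright pho1 arrays alone carried it over the limit for the test in both fits, so that p is no independent support for the difference.

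Of 46 entries for partners in detoxification, 5 glutathione transferase genes were tested and none passed, with a median of 0.07. GSTU27 lay at 0.27 (limma adjusted p = 0.545) and GSTU20 at -0.21 (0.73). Among 25 entries for hormone inactivation other than by UGTs, 2 amido synthetase genes were tested. GH3.17 lay at 0.58 (limma adjusted p = 0.348) and WES1 (GH3.5) at 0.51 (0.505). Each was called in the fit of replicates 2 and 3 alone, at 0.93 (limma adjusted p = 0.0252) and 0.96 (0.0431), where 19.0% of all tested probe sets were called. In that fit GH3.17 had signals of 9.2 and 16.5 in wild type and 32.9 and 32.8 in pho1. Only its pho1 arrays there lay above 17.4, the limit over 6 arrays. That fit set a limit over its own arrays, which is not given here. The pho1 arrays may thus have carried GH3.17 into the fit, so its p is not taken as independent support for the difference.

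Markers of the labelled tissue were bright in both groups. The summed signal of RCA, SBPASE and LHCB4.2, 3 of 13 leaf entries with a named probe set, was 7624 to 12570 in wild type and 7202 to 12190 in pho1. Root markers had 2 of 7 entries named, PYK10 and EXPA7, with a summed signal of 186 to 417 in wild type and 305 to 576 in pho1. The 2 went opposite ways, PYK10 at 0.80 and EXPA7, too dim to be tested, at -0.50, and PYK10 made up most of the sum. The guard cell gene FMA was at 54.0 to 69.3 and 66.9 to 91.7, and the trichome gene TRY at 26.5 to 38.4 and 12 to 25.7. SBPASE, a Calvin cycle enzyme, had signals of 2421, 2573 and 2131 in wild type and 2299, 1503 and 1195 in pho1. No tested marker passed over all 6 arrays, and the lowest adjusted p were 0.348 for TRY and 0.354 for PYK10 (limma). In replicates 2 and 3 alone SBPASE passed, at -0.80 (limma adjusted p = 0.0195), as the only marker that did. In that fit 19.0% of all tested probe sets passed. The part of such cells in the UGT values was not tested. Phloem, xylem, flower and senescence entries had no named probe set here.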

How the data were processed

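The deposited table gives 1 linear intensity per probe set and array. Per the submitters' processing notes the authors used MAS5, with no version stated there. It lists 22810 probe sets, 64 of them controls, and no other samples. Trimmed means of the 6 arrays (2% left out at each end) were all 100.01, so the authors had brought the arrays to a common level. Detection calls were not used here. Precision is limited by having 6 arrays.

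Each array was brought to that mean exactly, 10% of the mean (a signal of 10) was added and log2 taken. Probe sets with a mean log2 value under the 30th percentile (a signal of 17.4) were set aside. The other 15922 were tested with limma 3.58.1 in R 4.3.3, two-sided, with an intensity trend and without a block, with Benjamini-Hochberg adjustment over all of them and a threshold of 0.05; a probe set that passes is called. The procedure was tested on simulated arrays. Fits that leave out arrays set the filter limit anew over the arrays kept. Exact permutation tests used scipy 1.17.1 and plots matplotlib 3.10.9.

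Names came from the platform annotation, with locus and neighbours from a RefSeq table of TAIR10.1. Protein and promoter sequences were not used here. The members, the gene lists, the tests and the alternatives were chosen with earlier results of these data known. Values on every array are given for members that pass in the fit without a block, with the replicate block or in replicates 2 and 3, for members whose groups do not overlap and for the largest difference in each family with at least 3 tested members; values given for other members were chosen after they were seen. Of a gene list, up to 4 members that pass are named or, where none passes, the 2 with the smallest p. Deviations from group means correlated at 0.42, 0.217 and 0.386 between arrays of the same replicate number 1, 2 and 3, so arrays of 1 number were treated as a pair in the block; wild type 3 with pho1 2, of different numbers, was at 0.33, above the pair of number 2, and the labels do not state this pairing. Alternatives were other scalings, offsets, filters, variance models, thresholds and blocks, leaving out each array, replicates 2 and 3 alone, and membership by RefSeq names.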

Additional observations from a re-analysis of the deposited data

How the results depend on the processing

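Over 6 arrays 0 UGT probe sets were called higher and 0 lower (limma). The higher count was 1 with no filter (UGT71B8), 1 with the replicate block (UGT87A2), 2 with the spike-in set block, 3 in replicates 2 and 3 on their own (with UGT76E12, admitted there through its pho1 signal), 4 with array weights (UGT71C5, UGT72E1, UGT84A4 and UGT87A2) and 2 at a threshold of 0.1; leaving out single arrays gave 0 to 1, the 1 being UGT87A2 without pho1 replicate 1 (1.98, limma adjusted p = 0.0103). The lower count was 2 with array weights (UGT85A5 and UGT76E11) and 1 in replicates 2 and 3. The replicate block changed no other call of a member. With array weights 25.0% of the tested members passed, beside 23.8% of all tested probe sets. UGT76C2 turned from -0.44 to 0.04 with array weights and to 0.04 in replicates 2 and 3; the second leaves out pho1 replicate 1, and the cause with array weights was not tested. The median of the tested members stayed between 0.05 and 0.20 in all alternatives. All tested probe sets gave 472 calls, and 289 with no filter, 1057 with the replicate block, 1319 with the spike-in set block, 3021 in replicates 2 and 3, 3789 with array weights, 167 at a threshold of 0.01, 778 at 0.1 and 161 to 1040 without single arrays. Without a block and over all 6 arrays, other scalings and offsets called no member. Members with signals near or below the offset of 10 have differences that are understated.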

Other observations

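Several UGT genes stand outside the 47 members but were measured. A probe set shared by UGT73B2 and UGT73B3, genes linked to pathogen response, had signals of 129, 71.3 and 83.8 in wild type and 166, 107 and 144 in pho1; each pho1 array exceeded the wild-type array of its number, and the difference of 0.53 did not pass (limma adjusted p = 0.365). A probe set shared by UGT71D1 and AT2G29710 was at 26.2 ± 3.27 in wild type and 18.0 ± 1.22 in pho1 (SD, n = 3 each) with groups that did not overlap, at -0.37 (limma adjusted p = 0.356). Genes that RefSeq names as UGTs under another symbol also did not pass: UF3GT (UGT79B1) at 1.33 (limma adjusted p = 0.155), GT72B1 (UGT72B1) at -0.17 (0.867) and the sterol glucosyltransferase gene SGT (UGT80A2) at 0.16 (0.701), while AT5G54010 (UGT79B6) was too dim to be tested.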
